A study of Mus musculus with 8 samples.

Results

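Translation initiation and elongation factors are the proteins that place a ribosome on the start codon of an mRNA and then move it along the coding sequence. Their genes were taken from the deposited expression table by name. Every row whose mouse symbol starts with Eif1, Eif2, Eif3, Eif4, Eif5, Eif6, Eef1 or Eef2 was kept, apart from Eif2ak2 and rows named as pseudogenes. This gave 62 of the 23761 listed genes, and all 62 had a mean of at least 1 FPKM (fragments counted per kilobase of a gene's transcript, relative to the library's mapped fragments), the level required for testing.

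BMDMs, macrophages grown from bone marrow, were sequenced for this table, with 4 libraries from LysM mice and 4 from K2KO mice, all at 3 months of age. Marrow of the femur and tibia was cultured for 6 days in DMEM with medium conditioned by L929 cells, a fibroblast line that secretes the macrophage growth factor M-CSF, and the sample descriptions add a vehicle that the sequencing methods do not mention. LysM mice are LysM Cre/Cre and K2KO mice are LysM Cre/Cre KLF2 flox/flox, so both groups carry Cre recombinase at both alleles of the lysozyme M gene, Lyz2, whose promoter is active in monocytes, macrophages and neutrophils. KLF2 is a zinc-finger transcription factor, and the comparison asked which transcripts depend on it in macrophages. The columns give the genotype and a number from 0 to 3 but not the mouse, and the libraries are called LysM0 to LysM3 and K2KO0 to K2KO3 here. Values for each gene are given in that order.

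Klf2, the targeted gene, was at 44.1, 52.9, 64.7 and 72.8 FPKM in the LysM libraries and at 45.5, 41.6, 59.2 and 59.3 FPKM in the K2KO libraries. The groups overlapped, and their means differed by less than the libraries varied (p = 0.429 by an exact permutation test, two-sided, where 4 against 4 can reach 0.0286). Gene-level FPKM cannot tell which exons the reads cover, so these values do not check the deletion, and directions below are given for the libraries labelled K2KO.

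Macrophage markers were detected in every library. The summed level of 8 of them lay between 3927 and 4141 FPKM in LysM and between 3683 and 3826 FPKM in the libraries labelled K2KO. These sums did not overlap, as was so for 23.1% of all single genes tested. Summed FPKM of all genes was also lower on average in the libraries labelled K2KO, at 473577 against 531755. The lysosomal glycoprotein gene Cd68 was the most abundant of the 8. Of the 8, 3 had a log2 fold change above 0 and 5 below. Cd14 was among the latter, at a mean of 1028 FPKM in LysM and 829 FPKM in the libraries labelled K2KO (limma adjusted p = 0.0630). Of the 8, Mertk was higher (log2 fold change 0.36, limma adjusted p = 0.0285; 0.22 once corrected for the GC content and length of transcripts, as described further on, limma adjusted p = 0.113) and Lyz2 was lower (log2 fold change -0.49, limma adjusted p = 0.0260) in the libraries labelled K2KO. Lyz2, which holds Cre in both groups, was at only 11.5 to 22.5 FPKM. With TPM scaling, described further on, 1 of the 8 was higher and 0 lower (12.5%, against 28.9% of all genes), so Lyz2 did not pass there. The median log2 fold change of the 8 was -0.13 as deposited, 0.09 with quantile normalization and 0.03 with TPM scaling. The 8 neutrophil markers summed to 186 to 315 FPKM in LysM and 175 to 306 FPKM in the libraries labelled K2KO, led by S100a9, and of the 7 tested only Camp differed (log2 fold change -1.14, limma adjusted p = 0.0178). Of 6 T cell markers only Cd4 was tested, and it was higher in the libraries labelled K2KO at 5.15 against 1.92 FPKM (limma adjusted p = 0.000434), while Cd3d, Cd3e, Cd3g, Cd8a and Trac had means under 0.14 FPKM in both groups. The 5 B cell markers summed to 3.19 FPKM in LysM and 4.36 FPKM in the libraries labelled K2KO, led by Cd79b. The 5 dendritic cell markers summed to 1.67 and 3.00 FPKM, led by Ccr7, and 6 fibroblast markers to 0.551 and 1.64 FPKM, led by Dcn. The 5 erythroid markers summed to 0.685 and 1.09 FPKM, led by Hba-a1, with Hbb-bt listed at 0 in every library. In bulk RNA fewer cells of a type and less RNA per cell cannot be told apart, and the part of other cells in the results below was not tested.

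The scale of the libraries was compared as well. Summed FPKM of all genes overlapped between the groups and ran from 497253 to 551608 in LysM and from 448235 to 501965 in the libraries labelled K2KO (p = 0.0571, exact permutation test, two-sided). Read depth is unknown, and steps among the lowest values put the relative depth at 0.897 to 1.42 times that of LysM0. Gapdh was listed at 0 to 0.4999 FPKM in every library, so a value near 0 is read here only as listed. Actb did not overlap between the groups, at 2625 to 2949 FPKM in LysM and 1962 to 2449 FPKM in the libraries labelled K2KO.

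Eukaryotic translation begins when eIF2 brings the initiator tRNA to the small ribosomal subunit and eIF4F, made of the cap-binding protein eIF4E, the scaffold eIF4G and the helicase eIF4A, recruits the mRNA with the help of eIF3. The 4E-binding proteins hold eIF4E away from eIF4G until the kinase mTORC1 phosphorylates them, and phosphorylation of eIF2 by stress kinases blocks its recharging by eIF2B. After initiation, eEF1A delivers aminoacyl-tRNAs, the eEF1B subunits recharge it, and eEF2 moves the ribosome by one codon. Macrophages use these switches to alter cytokine synthesis during activation without waiting for new mRNA.

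Of the 62 factors, 15 (24.2%) were differentially expressed (limma on log2(FPKM + 0.1), adjusted p under 0.05 and absolute log2 fold change over 0.26), against 18.4% of all 10920 genes tested. In the libraries labelled K2KO, 8 rose (12.9%, against 9.84% of all genes) and 7 fell (11.3%, against 8.61% of all genes). These shares lie near those of all genes and are not a result about translation factors as a group. The factors that rose were the cap-binding protein genes Eif4e and Eif4e3, the scaffold-like Eif4g2, the eIF3 genes Eif3a and Eif3j2, Eif1a, Eif5 and Eef1e1. Those that fell were Eif4ebp3, Eif2b4, the eIF3 genes Eif3k and Eif3i, the elongation factor genes Eef1b2 and Eef1d, and the methyltransferase gene Eef1akmt1. None passed an absolute log2 fold change of 1, and the log2 fold changes ran from -0.59 for Eif4ebp3 to 0.57 for Eif3j2.

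The remaining 47 factors did not pass. Their log2 fold changes fell on both sides of 0, and over all 62 factors 32 were above 0 and 30 below. The median log2 fold change was 0.01 for the factors and 0.01 for all tested genes, and the median absolute log2 fold change was 0.14 for the factors and 0.17 for all tested genes. Summed over the 62 genes, the LysM level was 5406 ± 93.2 FPKM (SD, n = 4), and that of the libraries labelled K2KO was 5408 ± 269 FPKM (SD, n = 4). As a share of each library's summed FPKM, whose mean was lower in those libraries, the sum was 0.988% to 1.07% in LysM and 1.0996% to 1.22% in the libraries labelled K2KO. Scaling each library to the same sum, as TPM (each transcript as a share of its library) does, moved the median log2 fold change of all genes to 0.18 and that of the factors to 0.18, and the split of differentially expressed factors from 8 higher and 7 lower to 19 higher and 2 lower. Over all genes the same scaling gave 2813 higher and 347 lower (28.9% of all genes tested). The 11 factors added with TPM scaling, all higher, were Eef1a1, which also passed with quantile normalization and upper-quartile scaling, and Eef2, Eif1ax, Eif2ak3, Eif2ak4, Eif2b2, Eif2b3, Eif2s1, Eif3e, Eif4ebp2 and Eif4g1. None of the 15 genes changed sign under this or the other scalings.

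**Figure D1:**
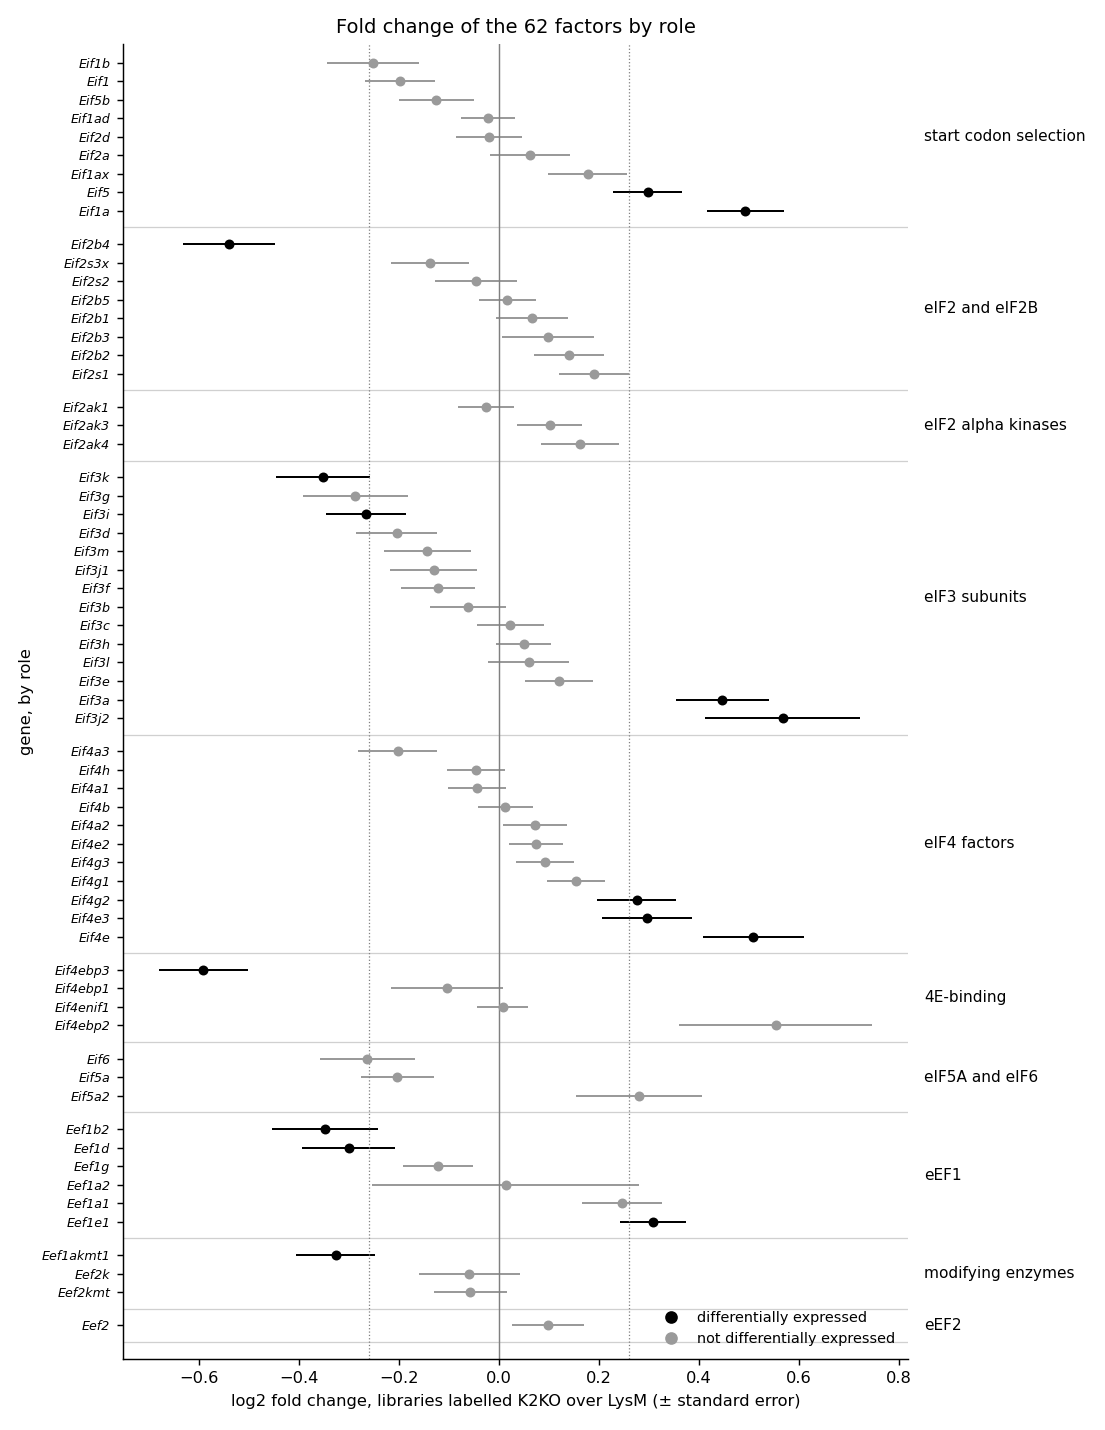
Log2 fold change of each of the 62 factors (x axis, libraries labelled K2KO over LysM, with standard error bars), arranged by role (y axis). Black points are the 15 differentially expressed genes, grey points the other 47, and dotted lines mark an absolute log2 fold change of 0.26; every large role holds genes on both sides of 0.

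No overlap between the genotypes was seen for 15 of the 62 factors (24.2%), against 23.1% of all tested genes, and 11 of these 15 were also differentially expressed. The other 4 were Eif5a, Eif4g1, Eif2s1 and Eef1a1. Conversely Eef1b2, Eef1d, Eif3i and Eif4e3 passed the test although their groups overlapped. Among the 15 differentially expressed genes, K2KO3 was the library labelled K2KO closest to the LysM libraries for 11 (73.3%), and it held that place for 70.9% of all differentially expressed genes. LysM0 was the LysM library closest to the other group for 9 of the 15 (60.0%), against 61.4% of all differentially expressed genes. Without K2KO3, 11 factors rose and 10 fell, and 26.0% of all genes were differentially expressed. The factors added without K2KO3 were Eif4ebp2, Eef1a1 and Eif5a2, which were higher, and Eif1b, Eif3g and Eif6, which were lower. Without LysM3 or without K2KO2, 1 rose and 2 fell, where the share of all genes was 3.09% and 4.54%. The other counts were 7 and 8 without LysM0 (21.4% of all genes, with Eif1b and Eif4ebp2 added), 5 and 2 without LysM1 (6.74%), 6 and 3 without LysM2 (9.43%), 4 and 2 without K2KO0 (6.47%), and 4 and 2 without K2KO1 (6.65%). The counts of factors thus varied together with those of all genes.

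**Figure D2:**
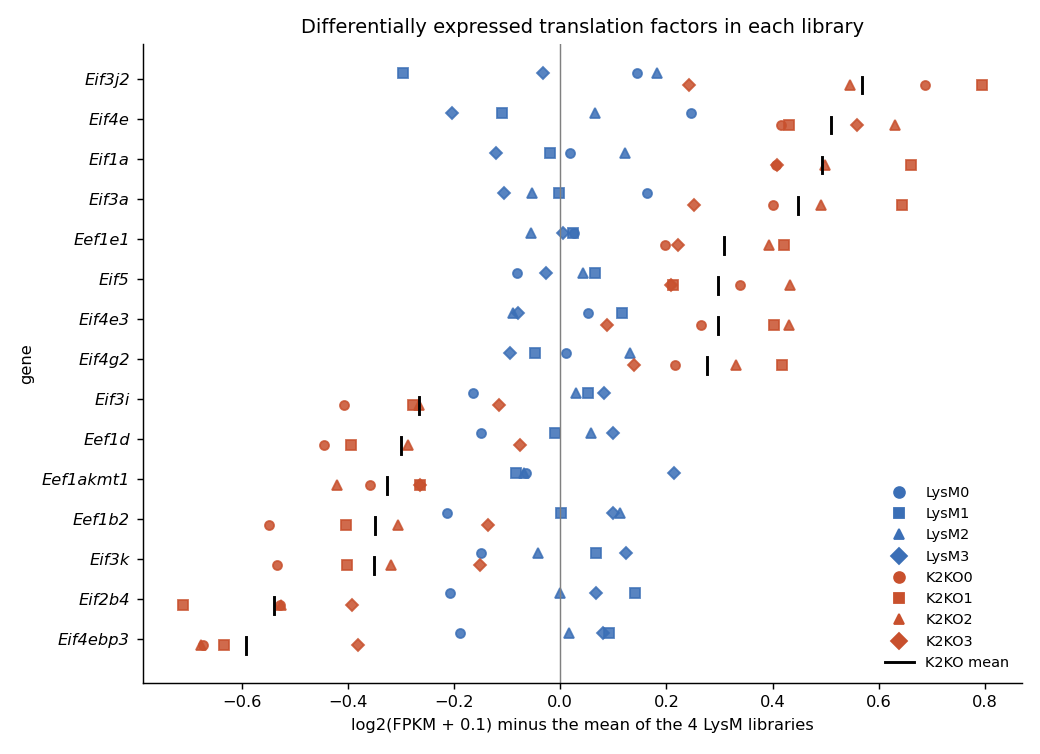
Each library's log2(FPKM + 0.1) minus the LysM mean (x axis) for the 15 differentially expressed factors (y axis), with LysM libraries in blue, libraries labelled K2KO in orange and the K2KO mean as a black bar. For most genes K2KO3, the orange diamond, is the orange point nearest to the blue ones, and for Eef1b2, Eef1d, Eif3i and Eif4e3 the colours overlap.

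The log2 fold changes varied with base composition and transcript length. Across the 62 factors, Spearman's rho of the log2 fold change was -0.49 with the GC content of the transcripts and 0.49 with their median length, and across 10899 tested genes it was -0.40 and 0.26. Genes within a library share its depth and fragment sizes and are not replicates, so these values are descriptions. The 8 factors that rose had a GC content of 40.1% to 46.2% (median 42.9%), and the 7 that fell 49.7% to 56.8% (median 54.3%), with no overlap. Median transcript length was 1490 bases for those that rose and 723 bases for those that fell. After a local regression of every library on GC content and length, 6 factors were differentially expressed (9.68%, against 9.87% of all genes), and all 6 were among the 15. These were Eif4e and Eif1a, which remained higher, and Eif4ebp3, Eif2b4, Eef1b2 and Eef1akmt1, which remained lower. The other 9 no longer passed, namely Eif3k, Eif3i, Eif3a, Eif3j2, Eef1d, Eef1e1, Eif4g2, Eif4e3 and Eif5. Whether composition or genotype moved these 9 was not tested.

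**Figure D3:**
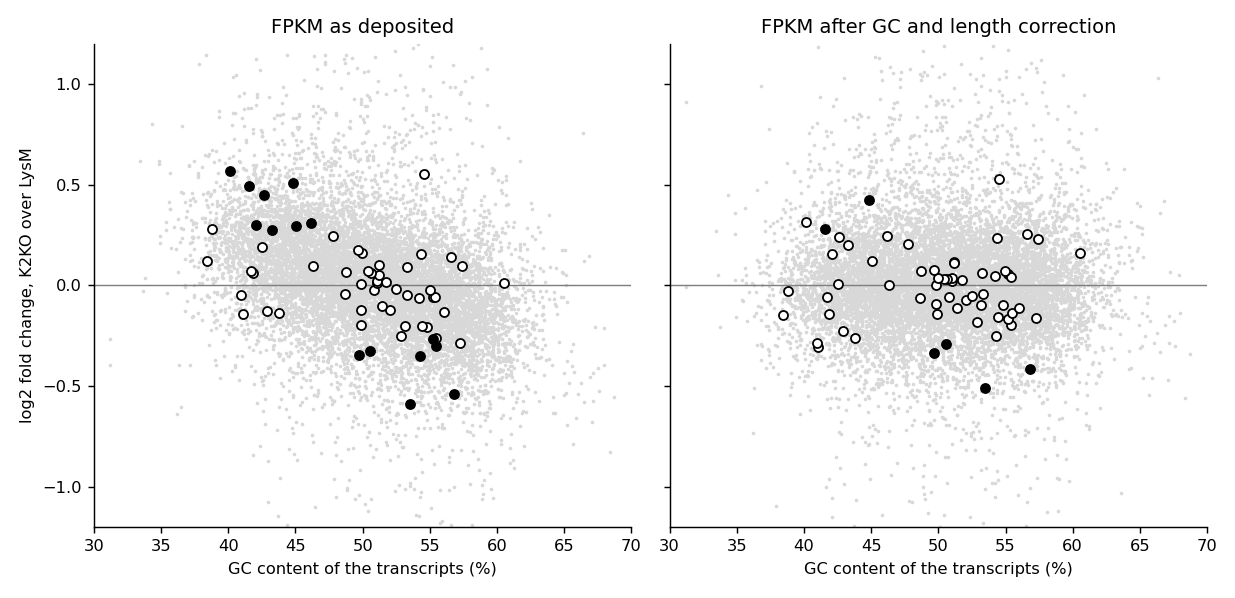
Log2 fold change (y axis, libraries labelled K2KO over LysM) against the GC content of the transcripts (x axis, percent) for all tested genes within the axes (grey dots) and the 62 factors (circles), from FPKM as deposited (left) and after the correction (right). Filled circles are differentially expressed, 15 on the left and 6 on the right, and on the left the filled circles above 0 all lie at lower GC content than those below 0.

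Of the 9 genes for start codon selection and subunit joining, 2 rose and none fell (22.2%, against 18.4% of all genes). Eif1a, which encodes a form of eIF1A, the factor that with eIF1 keeps the small subunit open for scanning, lies on chromosome 18 from 46597701 to 46616456 on the plus strand of GRCm38. It was at 18.1, 17.7, 19.5 and 16.5 FPKM in LysM and 23.8, 28.3, 25.3 and 23.8 FPKM in the libraries labelled K2KO. Every library labelled K2KO was above every LysM library (limma, log2 fold change 0.49 with a standard error of 0.08, adjusted p = 0.00902), and Eif1a passed in each of the 8 fits that left out 1 library. After the correction for GC content and length its log2 fold change was smaller, at 0.28 (limma adjusted p = 0.0273), and with a replicate block added to the correction it did not pass (limma adjusted p = 0.0542). Its X-linked relative Eif1ax had a log2 fold change of 0.18 (limma adjusted p = 0.130). The level of Eif5, the activator of GTP hydrolysis by eIF2, was 29.7, 32.9, 32.4 and 30.9 FPKM in LysM and 39.8, 36.5, 42.5 and 36.4 FPKM in the libraries labelled K2KO. These groups did not overlap either (limma, log2 fold change 0.30 with a standard error of 0.07, adjusted p = 0.0213), and after the correction for GC content and length the log2 fold change was 0.15 (limma adjusted p = 0.1002). Eif5 also lost its call without LysM3, K2KO0 or K2KO2.

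Eif1, the most abundant gene of the group and the partner of eIF1A in start codon stringency, was listed at 206, 228, 222 and 226 FPKM in LysM and 181, 181, 201 and 209 FPKM in the libraries labelled K2KO. LysM0 lay inside the range of the libraries labelled K2KO, and the difference did not pass (limma, log2 fold change -0.20 with a standard error of 0.07, adjusted p = 0.0737). Eif1 has 11 listed copies elsewhere in the genome with at least 95% identity over at least 200 bases, among them Gm10157 at a mean of 115 FPKM in LysM and 104 FPKM in the libraries labelled K2KO, so its own reads are uncertain. The remaining 5 genes, Eif1b, Eif5b (which joins the ribosomal subunits), Eif1ad, Eif2d and Eif2a, did not pass and had log2 fold changes from -0.25 to 0.06.

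Among the 8 genes of eIF2 and its exchange factor eIF2B, only Eif2b4 passed with FPKM as deposited (12.5%, against 18.4% of all genes). With TPM scaling 3 were higher and 1 lower (50%, against 28.9% of all genes). Eif2b4 encodes the delta subunit of eIF2B, part of the regulatory core that senses phosphorylated eIF2. It lies on chromosome 5 from 31187558 to 31193430 on the minus strand. Eif2b4 was at 17.4, 22.2, 20.1 and 21.1 FPKM in LysM and 13.9, 12.3, 13.95 and 15.3 FPKM in the libraries labelled K2KO. All libraries labelled K2KO were below all LysM libraries (limma, log2 fold change -0.54 with a standard error of 0.09, adjusted p = 0.0112), and the gene passed in each of the 8 fits that left out 1 library and after the correction (log2 fold change -0.42, limma adjusted p = 0.0177). It overlaps Snx17, an opposite-strand neighbour that stood at 69.4 FPKM in LysM and 60.8 FPKM in the libraries labelled K2KO, and the use of strand in the authors' quantification is not given in the sources used here.

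The catalytic subunit gene of the same complex, Eif2b5, was at 12.6, 13.99, 13.9 and 13.3 FPKM in LysM and 13.2, 13.1, 13.99 and 14.1 FPKM in the libraries labelled K2KO. These ranges coincided (limma, log2 fold change 0.02 with a standard error of 0.06, adjusted p = 0.846). Eif2b1, Eif2b2 and Eif2b3 had log2 fold changes of 0.07, 0.14 and 0.10, so Eif2b4 was the only one of the 5 eIF2B genes below 0 with all libraries, and Eif2b5 moved to -0.013 without LysM0. After the correction the log2 fold change of Eif2b2 was 0.2576, below the limit of 0.26 (limma adjusted p = 0.0236). For Eif2s1, which encodes the eIF2 subunit that stress kinases phosphorylate, the levels were 13.7, 14.4, 14.5 and 13.5 FPKM in LysM and 14.9, 17.4, 17.1 and 14.8 FPKM in the libraries labelled K2KO. The groups did not overlap, but the difference did not pass (limma, log2 fold change 0.19 with a standard error of 0.07, adjusted p = 0.0800). After the correction the log2 fold change of Eif2s1 was 0.01 (limma adjusted p = 0.917), while with TPM scaling it was 0.36 and passed (limma adjusted p = 0.0167). Eif2s2 and Eif2s3x, the genes of the other two subunits, had log2 fold changes of -0.05 and -0.14, with adjusted p of 0.709 and 0.226 in limma, and both have close copies elsewhere. Gm9892, with 99.5% identity to Eif2s2 over 992 bases, rose from a mean of 13.4 to 18.7 FPKM (log2 fold change 0.47, limma adjusted p = 0.0147), and the sum with Eif2s2 was 30.7 to 34.3 FPKM in LysM and 32.0056 to 39.1 FPKM in the libraries labelled K2KO. Gm2223, identical to Eif2s3x over 1350 bases, rose from 4.90 to 9.95 FPKM (log2 fold change 0.99, limma adjusted p = 0.0196), and the sum with Eif2s3x was 9.22 to 11.98 FPKM in LysM and 11.3 to 18.8 FPKM in the libraries labelled K2KO. With the copies both means were thus higher in the libraries labelled K2KO, opposite in sign to the genes alone, and the groups overlapped.

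None of the 3 eIF2 kinase genes passed with FPKM as deposited. Eif2ak3 encodes PERK, the sensor of unfolded protein in the endoplasmic reticulum, and was at 4.47, 4.87, 4.81 and 5.09 FPKM in LysM and 5.28, 5.45, 4.92 and 5.02 FPKM in the libraries labelled K2KO. Eif2ak4, the gene of the amino acid sensor GCN2, was at 3.68, 3.504, 3.18 and 3.63 FPKM in LysM and 3.94, 4.03, 3.59 and 4.15 FPKM in the libraries labelled K2KO. Both means were slightly higher in the libraries labelled K2KO, with log2 fold changes of 0.10 (standard error 0.07, limma adjusted p = 0.280) and 0.16 (standard error 0.08, limma adjusted p = 0.155), and both pairs of groups overlapped. Both genes passed with TPM scaling (log2 fold changes of 0.27 and 0.33, limma adjusted p of 0.0350 and 0.0328), and after the correction the log2 fold changes were 0.11 and 0.03. Eif2ak1, the haem-regulated kinase gene and the most abundant of the 3 at a mean of 21.2 FPKM, had a log2 fold change of -0.03 (limma adjusted p = 0.762). Downstream of eIF2, Atf4, the transcription factor gene translated when eIF2 is phosphorylated, was at 256, 287, 229 and 257 FPKM in LysM and 184, 198, 239 and 312 FPKM in the libraries labelled K2KO (limma adjusted p = 0.452). Of 10 tested genes around eIF2 in the integrated stress response, Impact, an inhibitor of GCN2 activation, rose (log2 fold change 0.47, limma adjusted p = 0.0179), and Ppp1cc, a catalytic subunit of the phosphatase that resets eIF2, fell (log2 fold change -0.28, limma adjusted p = 0.0340). These 2 of 10 make 20%, near the 18.4% of all genes. With upper-quartile scaling 1 of the 10 was higher and 0 lower (10%, against 19.1% of all genes). With TPM scaling 3 were higher and 0 lower (30%, against 28.9% of all genes), so the fall of Ppp1cc passed under neither. Impact passed in 4 and Ppp1cc in 1 of the 8 fits that left out 1 library.

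Of the 14 subunit genes of eIF3, the largest initiation factor, 2 rose and 2 fell (28.6%, against 18.4% of all genes), and none of these 4 passed after the correction for GC content and length, where 9.87% of all genes did. With quantile normalization 1 was higher and 0 lower (7.14%, against 14.0476% of all genes), and with TPM scaling 3 were higher and 0 lower (21.4%, against 28.9% of all genes). The corrected log2 fold changes were 0.24 for Eif3a, 0.32 for Eif3j2 and -0.17 for Eif3i, with adjusted p of 0.0733, 0.126 and 0.0975 in limma. Eif3k, at -0.25 with a limma adjusted p of 0.0499, missed only the limit on the fold change. Mean levels spanned 2.09 FPKM for Eif3j2 to 218 FPKM for Eif3k, and 12 of the 14 lay above 35 FPKM. Eif3a, the largest scaffold subunit, on chromosome 19 from 60761117 to 60790658, was at 33.3, 29.7, 28.7 and 27.6 FPKM in LysM and 39.3, 46.6, 41.9 and 35.5 FPKM in the libraries labelled K2KO. The lowest library labelled K2KO, K2KO3, was above the highest LysM library, LysM0 (limma, log2 fold change 0.45 with a standard error of 0.09, adjusted p = 0.0166), and the gene lost its call without LysM3 or without K2KO2, where the adjusted p reached at most 0.0635 (limma). Eif3k, a small peripheral subunit gene on chromosome 7 from 28971372 to 28981864, was at 219.8, 255, 237 and 265 FPKM in LysM and 168, 184, 195 and 219 FPKM in the libraries labelled K2KO. K2KO3 and LysM0 nearly met, at 219.5 and 219.8 FPKM (limma, log2 fold change -0.35 with a standard error of 0.09, adjusted p = 0.0327). With quantile normalization and with TPM scaling its log2 fold change was -0.17 and -0.18 and did not pass (limma adjusted p of 0.0870 and 0.0522).

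Eif3i, the gene of a WD-repeat subunit bound to eIF3b, was at 74.2, 86.2, 84.9 and 87.98 FPKM in LysM and 62.7, 68.6, 69.1 and 76.8 FPKM in the libraries labelled K2KO. LysM0 lay below K2KO3, so the groups overlapped, although the difference passed (limma, log2 fold change -0.27 with a standard error of 0.08, adjusted p = 0.0460). It did not pass with quantile normalization (log2 fold change -0.14) or with TPM scaling (log2 fold change -0.10). Eif3j2 encodes eIF3j, a loosely bound subunit that acts in the mRNA channel, and was at 1.83, 1.32, 1.88 and 1.61 FPKM in LysM and 2.71, 2.93, 2.45 and 1.97 FPKM in the libraries labelled K2KO. The groups did not overlap (limma, log2 fold change 0.57 with a standard error of 0.16, adjusted p = 0.0339), but Eif3j2 is 99.4% identical to Eif3j1 over 2379 bases, and Eif3j1 had a log2 fold change of -0.13 (limma adjusted p = 0.296). Summed, the pair was at 4.54, 4.55, 4.93 and 4.32 FPKM in LysM and 5.26, 5.55, 5.26 and 4.63 FPKM in the libraries labelled K2KO, with K2KO3 inside the LysM range. With 1 library left out, Eif3k, Eif3i and Eif3j2 kept their calls only without LysM0 or without K2KO3.

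Eif3e, the gene of a core subunit, was at 44.3, 44.8, 46.5 and 43.3 FPKM in LysM and 46.8, 53.2, 50.7 and 44.3 FPKM in the libraries labelled K2KO. Its groups overlapped (limma, log2 fold change 0.12 with a standard error of 0.07, adjusted p = 0.221), and the sign turned after the correction (log2 fold change -0.15, limma adjusted p = 0.0768). The other subunit genes, Eif3b, Eif3c, Eif3d, Eif3f, Eif3g, Eif3h, Eif3l and Eif3m, did not pass, and their log2 fold changes ranged from -0.29 for Eif3g to 0.06 for Eif3l. Eif3a and Eif3k, whose products sit in one complex, thus differed in direction, and the ratio of their levels is not a measure of the assembled complex.

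**Figure D4:**
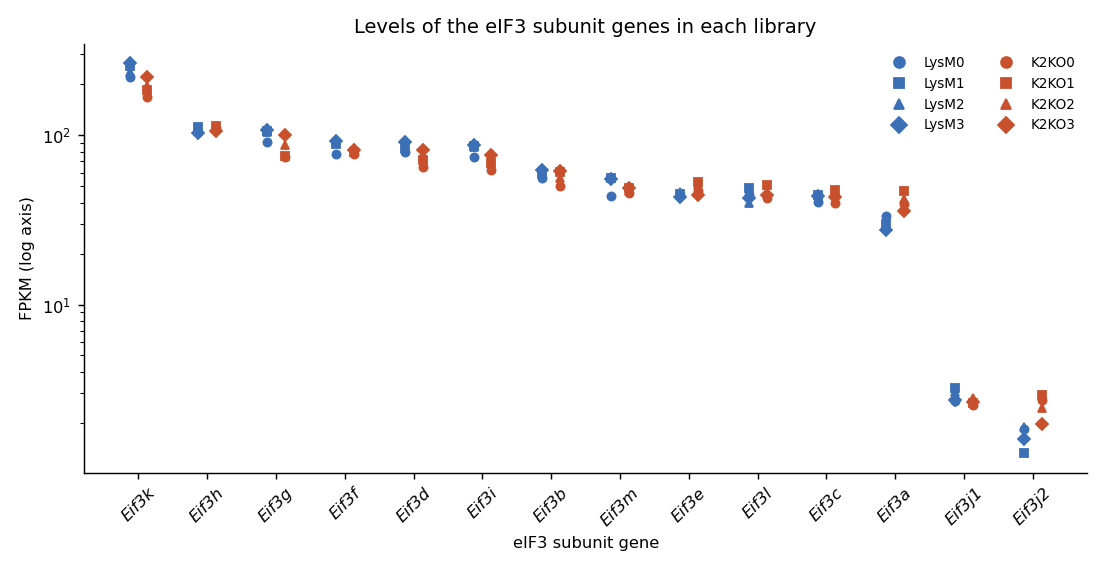
FPKM of the 14 eIF3 subunit genes in each library (y axis, log axis), ordered by mean level (x axis), with LysM in blue and the libraries labelled K2KO in orange. The subunit genes from Eif3k to Eif3a lie within 27.6 and 265 FPKM, and Eif3j1 and Eif3j2 lie between 1.32 and 3.23 FPKM.

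Of 11 eIF4 genes for cap binding, scaffold and helicase, 3 rose and none fell (27.3%, against 18.4% of all genes), and after the correction 1 was higher (9.09%, against 9.87% of all genes). Eif4e encodes the protein that holds the mRNA cap, and lies on chromosome 3 from 138526179 to 138559696 on the plus strand. Its level was 21.5, 16.8, 18.96 and 15.7 FPKM in LysM and 24.2, 24.4, 28.1 and 26.7 FPKM in the libraries labelled K2KO. Its lowest value in the libraries labelled K2KO was above its highest in LysM (limma, log2 fold change 0.51 with a standard error of 0.10, adjusted p = 0.0146). Eif4e also passed after the correction (log2 fold change 0.43, limma adjusted p = 0.0353), but not without LysM3 or without K2KO2, where the adjusted p reached at most 0.0562 (limma), nor with a replicate block added to the correction (limma adjusted p = 0.0576). Gm7327, a copy elsewhere with 98.6% identity over 654 bases, moved the same way, from a mean of 6.81 to 11.3 FPKM (limma adjusted p = 0.0113), and the sum of both was 21.1 to 29.5 FPKM in LysM and 36.5 to 38.4 FPKM in the libraries labelled K2KO.

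Eif4e3, a relative of eIF4E that binds the cap in a different way, was at 5.72, 5.98, 5.17 and 5.21 FPKM in LysM and 6.64, 7.31, 7.47 and 5.86 FPKM in the libraries labelled K2KO. K2KO3 lay below LysM1, and the difference passed (limma, log2 fold change 0.30 with a standard error of 0.09, adjusted p = 0.0453) only with all 8 libraries or without K2KO3. Its log2 fold change was 0.12 after the correction (limma adjusted p = 0.267) and 0.24 with quantile normalization (limma adjusted p = 0.0760). Eif4g2, also called DAP5, resembles the scaffold without its eIF4E-binding part and serves cap-independent initiation. It was at 75.3, 72.3, 81.9 and 70.02 FPKM in LysM and 86.8, 99.8, 94.01 and 82.4 FPKM in the libraries labelled K2KO. The groups were separate by a narrow margin, K2KO3 against LysM2 (limma, log2 fold change 0.28 with a standard error of 0.08, adjusted p = 0.0380), and after the correction the log2 fold change was 0.20 (limma adjusted p = 0.0867). With 1 library left out, Eif4g2 kept its call only without LysM2 or without K2KO3.

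Eif4g1, the main scaffold gene, was at 47.8, 46.5, 44.02 and 42.4 FPKM in LysM and 48.4, 52.2, 50.9 and 49.7 FPKM in the libraries labelled K2KO. The groups did not overlap, yet the difference did not pass (limma, log2 fold change 0.15 with a standard error of 0.06, adjusted p = 0.0860). It passed with TPM scaling (log2 fold change 0.32, limma adjusted p = 0.0182), and after the correction its log2 fold change of 0.24 was below the limit of 0.26 (limma adjusted p = 0.0447). Eif4a1, the main helicase gene, was at 86.7, 87.6, 85.05 and 83.9 FPKM in LysM and 76.6, 85.7, 83.7 and 87.2 FPKM in the libraries labelled K2KO. Those ranges overlapped (limma, log2 fold change -0.04 with a standard error of 0.06, adjusted p = 0.607), and the sign turned with quantile normalization and with TPM scaling. Eif4a1 cannot be separated from Eif4a-ps4, a copy with 99.9% identity over 1218 bases listed at a mean of 230 FPKM in LysM and 274 FPKM in the libraries labelled K2KO, more than the gene itself. The sum of both was 296 to 339 FPKM in LysM and 338 to 397 FPKM in the libraries labelled K2KO. The other 6 genes, Eif4a2, Eif4a3, Eif4b, Eif4e2, Eif4g3 and Eif4h, did not pass, with log2 fold changes from -0.20 to 0.09.

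Eif4ebp3, the gene of a 4E-binding protein, fell more than any other factor with FPKM as deposited. It lies on chromosome 18 from 36664060 to 36665917 and was at 43.01, 52.3, 49.6 and 51.9 FPKM in LysM and 30.7, 31.6, 30.6 and 37.6 FPKM in the libraries labelled K2KO. All 4 libraries labelled K2KO were below all LysM libraries, with K2KO3 the highest of the 4 (limma, log2 fold change -0.59 with a standard error of 0.09, adjusted p = 0.00825). The gene passed in each of the 8 fits that left out 1 library and after the correction (log2 fold change -0.51, limma adjusted p = 0.00935). With quantile normalization its log2 fold change was -0.52, and that of Eif2b4 was -0.53. A transcript not analysed here is identical to Eif4ebp3 over 504 bases, and how reads were divided between them is unknown. Eif4ebp2 was at 12.6, 9.39, 9.23 and 8.64 FPKM in LysM and 16.8, 19.5, 13.2 and 10.3 FPKM in the libraries labelled K2KO. Its mean was higher in the libraries labelled K2KO, but K2KO3 lay inside the LysM range and the difference did not pass (limma, log2 fold change 0.55 with a standard error of 0.19, adjusted p = 0.0697). Eif4ebp1, the best studied of the family and the only factor gene on the chromosome of Klf2, was at 25.6, 35.2, 32.6 and 36.05 FPKM in LysM and 31.9, 26.4, 30.6 and 30.8 FPKM in the libraries labelled K2KO, with no separation (limma, log2 fold change -0.10 with a standard error of 0.11, adjusted p = 0.523). Eif4enif1, which carries eIF4E into the nucleus, had a log2 fold change of 0.01 (limma adjusted p = 0.928).

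Summed over Eif4ebp1, Eif4ebp2 and Eif4ebp3, the level was 81.2, 96.9, 91.5 and 96.6 FPKM in LysM and 79.4, 77.5, 74.4 and 78.8 FPKM in the libraries labelled K2KO. The ratio of Eif4e to this sum was 0.265, 0.173, 0.207 and 0.163 in LysM and 0.304, 0.315, 0.378 and 0.339 in the libraries labelled K2KO, without overlap. This ratio was chosen after the values of its genes were seen, so it is a description with no test. It concerns transcripts, whereas the binding of these proteins to eIF4E depends on their phosphorylation, which was not measured.

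**Figure D5:**
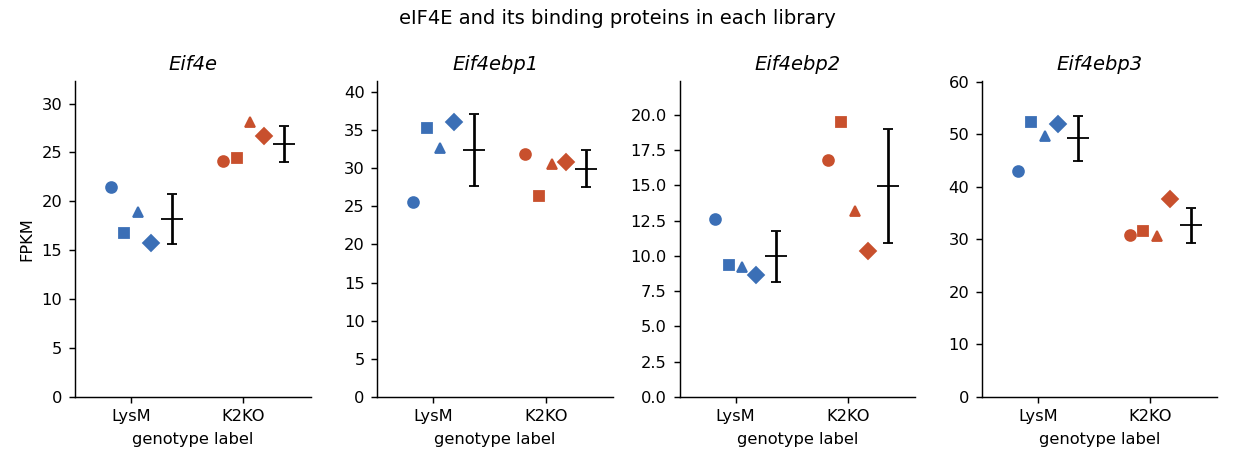
FPKM (y axis, from 0) of Eif4e and the 3 binding protein genes in each library, by genotype label (x axis), with black bars for the mean and SD of 4 libraries. Eif4e is higher and Eif4ebp3 lower in every library labelled K2KO, while Eif4ebp1 and Eif4ebp2 overlap.

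Of the 62 factors, 48 have a promoter entry in RefSeq on GRCm38.p6, and the 250 bases before the annotated starts were searched for the E-box CACGTG, the letters bound by MYC and TFE3 family factors, which reads the same on both strands. It was present in 11 of 48 factors (22.9%), against 10.6% of 7752 tested genes with an entry and 6.86% of all 27025 genes with one. A gene counted when the letters lay before any of its annotated starts. The number of starts per gene and the base composition of promoters were not matched, so these shares are descriptions. The shorter letters CACCC, part of the motif that KLF factors bind, were found on either strand in 25 of 48 factors (52.1%), against 60.2% of the tested genes. Of the 11 genes with the E-box, 4 had a log2 fold change above 0 and 7 below. Differentially expressed were 2 of the 11, against 18.4% of all genes tested, namely Eif4e and Eif3k, which moved in opposite directions. Windows of 30 bases from both genes, and from Eif4g1 and Eef2 as members that did not pass, show the sequence around it, with the E-box in capitals. They come from RefSeq, are read along the gene's own strand and lie at chr3:138527028-138527057 and chr3:138527192-138527221 (Eif4e, plus), chr7:28981915-28981944 (Eif3k, minus), chr16:20672661-20672690 (Eif4g1, plus) and chr10:81176576-81176605 (Eef2, plus). Starts are those of RefSeq, and for Eif4e and Eif4g1 GENCODE begins the gene further upstream, so these windows lie inside the GENCODE gene.
Eif4e, E-box starting 228 bases before the start: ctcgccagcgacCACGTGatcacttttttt
Eif4e, E-box starting 64 bases before the start: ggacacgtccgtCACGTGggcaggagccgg
Eif3k, E-box starting 44 bases before the start: ctggaaggaaatCACGTGgtagacaaaaaa
Eif4g1, E-box starting 54 bases before the start: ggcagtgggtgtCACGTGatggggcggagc
Eef2, E-box starting 43 bases before the start: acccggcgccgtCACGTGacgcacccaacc
A match says only that these letters lie in the window, not that a factor binds there.

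None of the 3 genes of eIF5A and eIF6 passed. Eif5a encodes the hypusine-bearing factor that helps the ribosome through difficult peptide bonds, and was at 404, 407, 389 and 402 FPKM in LysM and 308, 355, 353 and 379.5 FPKM in the libraries labelled K2KO. The groups did not overlap, and the difference did not pass (limma, log2 fold change -0.20 with a standard error of 0.07, adjusted p = 0.0775). Quantile normalization took its log2 fold change to 0.0035. Eif6, which keeps the large subunit from joining too early, was at 87.7, 94.3, 90.1 and 96.8 FPKM in LysM and 67.4, 73.01, 76.3 and 92.5 FPKM in the libraries labelled K2KO, where K2KO3 lay among the LysM libraries (limma, log2 fold change -0.26 with a standard error of 0.09, adjusted p = 0.0763), and the log2 fold change after the correction was -0.14 (limma adjusted p = 0.190). Eif5a2, the least abundant of the 62, was at 1.76, 1.68, 1.505 and 1.64 FPKM in LysM and 2.01, 2.31, 2.15 and 1.65 FPKM in the libraries labelled K2KO, with K2KO3 again inside the LysM range (limma, log2 fold change 0.28 with a standard error of 0.13, adjusted p = 0.134), and the sign turned after the correction (log2 fold change -0.03, limma adjusted p = 0.872). Of the enzymes that make hypusine, Dhps and Dohh did not pass (limma adjusted p of 0.896 and 0.163).

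Of 6 eEF1 genes 1 rose and 2 fell, that is 50% against 18.4% of all genes. The split depended on the scale. It was 2 higher and 0 lower with quantile normalization (33.3%, against 14.0476% of all genes) and with TPM scaling (33.3%, against 28.9%). With upper-quartile scaling it was 2 higher and 1 lower (50%, against 19.1%), and after the correction 0 higher and 1 lower (16.7%, against 9.87%). Over all genes the split with TPM scaling was 2813 higher and 347 lower. Eef1a1 was the most abundant of all 62 factors, and its product carries aminoacyl-tRNA to the ribosome. It was at 1557, 1506, 1392 and 1425 FPKM in LysM and 1611, 1930.3, 1765 and 1677 FPKM in the libraries labelled K2KO. The groups did not overlap, but the adjusted p missed the threshold (limma, log2 fold change 0.25 with a standard error of 0.08, adjusted p = 0.0549). Eef1a1 passed as higher with quantile normalization (log2 fold change 0.55, limma adjusted p = 0.0173), upper-quartile scaling (0.29, limma adjusted p = 0.0305) and TPM scaling (0.41, limma adjusted p = 0.0136), but not after the correction (0.21, limma adjusted p = 0.105). Its copy Gm13456, with 98.6% identity over 1317 bases, was at a mean of 111 FPKM in LysM and 174 FPKM in the libraries labelled K2KO, and with it the sum was 1490 to 1691 FPKM against 1781 to 2143 FPKM.

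Eef1b2, the gene of the beta subunit that recharges eEF1A with GTP, was at 417, 484, 523 and 518 FPKM in LysM and 331, 366, 391 and 439.98 FPKM in the libraries labelled K2KO. K2KO3 was above LysM0, so the groups overlapped while the difference passed (limma, log2 fold change -0.35 with a standard error of 0.11, adjusted p = 0.0466), also after the correction (log2 fold change -0.34, limma adjusted p = 0.0411). It did not pass with quantile normalization (log2 fold change -0.15, limma adjusted p = 0.146) or with TPM scaling (log2 fold change -0.18, limma adjusted p = 0.0728). Gm43712, listed at a mean of 180 FPKM in LysM and 131 FPKM in the libraries labelled K2KO, shares 98.9% identity with Eef1b2 over 278 bases. Eef1d, the delta subunit gene with the same exchange activity, was at 119, 131, 137 and 141 FPKM in LysM and 96.9, 100.3, 108 and 125 FPKM in the libraries labelled K2KO. There too K2KO3 lay above LysM0 (limma, log2 fold change -0.30 with a standard error of 0.09, adjusted p = 0.0480), and the log2 fold change was -0.15 with quantile normalization and -0.13 with TPM scaling, where it did not pass (limma adjusted p of 0.135 and 0.121). Eef1g, the structural gamma subunit gene, had a log2 fold change of -0.12 (limma adjusted p = 0.232). Its copy Gm4366, with 99.6% identity over 1342 bases, was listed at a mean of 129.9 FPKM in LysM and 129.98 FPKM in the libraries labelled K2KO, and the sum of both had means of 194 and 189 FPKM, with overlap. Eef1b2 overlaps Ndufs1 on the opposite strand and Eef1d overlaps Naprt on its own strand, so reads in the shared stretches could be assigned to either gene. With 1 library left out, Eef1b2 and Eef1d kept their calls only without LysM0 or without K2KO3.

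Eef1e1, which despite its name encodes AIMP3, a member of the aminoacyl-tRNA synthetase complex, was at 9.12, 9.104, 8.62 and 8.98 FPKM in LysM and 10.3, 12.02, 11.8 and 10.5 FPKM in the libraries labelled K2KO. All libraries labelled K2KO were above the LysM libraries, which lay close together (limma, log2 fold change 0.31 with a standard error of 0.07, adjusted p = 0.0179). After the correction its log2 fold change of 0.24 was below the limit of 0.26 (limma adjusted p = 0.0380), and it lost its call without LysM3, K2KO1 or K2KO2. Eef1a2, the form of muscle and neurons, was at a mean of 4.74 FPKM with a log2 fold change of 0.01 (standard error 0.27).

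Eef2, the translocase gene, was the second most abundant factor, at 498, 485, 432 and 454 FPKM in LysM and 489, 542, 487 and 481 FPKM in the libraries labelled K2KO. The groups overlapped (limma, log2 fold change 0.10 with a standard error of 0.07, adjusted p = 0.343). Eef2k, the kinase gene whose product halts eEF2, was at 4.84, 5.27, 4.55 and 5.28 FPKM in LysM and 4.21, 5.68, 4.402 and 4.93 FPKM in the libraries labelled K2KO, without separation (limma, log2 fold change -0.06 with a standard error of 0.10, adjusted p = 0.691). Eef1akmt1, a lysine methyltransferase gene for eEF1A on chromosome 14 from 57549597 to 57571612, was at 18.4, 18.2, 18.4 and 22.3 FPKM in LysM and 14.99, 16.02, 14.3 and 16.01 FPKM in the libraries labelled K2KO. Each library labelled K2KO was below each LysM library, of which LysM3 stood highest (limma, log2 fold change -0.33 with a standard error of 0.08, adjusted p = 0.0247), and the difference also passed after the correction (log2 fold change -0.29, limma adjusted p = 0.0444), but not with the replicate block added to it (limma adjusted p = 0.0548) or with TPM scaling (log2 fold change -0.16, limma adjusted p = 0.142). With 1 library left out the call held only without LysM0, LysM2 or K2KO3. Eef2kmt had a log2 fold change of -0.06 (limma adjusted p = 0.590). Of 7 tested genes for diphthamide, the histidine modification of eEF2, Dph6 alone passed, and it rose (log2 fold change 0.52, limma adjusted p = 0.0112).

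In earlier work 9 of the 62 were classed as TOP mRNAs, which begin with a pyrimidine tract read by LARP1 downstream of mTORC1. Of these, Eef1b2 and Eef1d fell and Eef1a1, Eef1g, Eef2, Eif3e, Eif3f, Eif3h and Eif4b did not pass, with a median log2 fold change of 0.01 (22.2% differentially expressed, against 18.4% of all genes). The direction of these calls varied with the scale. With quantile normalization 1 was higher and 0 lower (median 0.14; 11.1%, against 14.0476% of all genes). With upper-quartile scaling 1 was higher and 1 lower (median 0.06; 22.2%, against 19.1%). With TPM scaling 3 were higher and 0 lower (median 0.18; 33.3%, against 28.9%). After the correction 0 were higher and 1 lower (median -0.07; 11.1%, against 9.87%). The cytosolic ribosomal proteins, whose mRNAs belong to the same class, had 27 lower and 2 higher of 83 tested (34.9%, against 18.4% of all genes). Their median log2 fold change was -0.26. Rpl29, 1 of the 2 higher, was listed at 0.245, 0.253, 0.102 and 0 FPKM in LysM. In the libraries labelled K2KO it was at 337, 349, 408 and 435 FPKM (limma, log2 fold change 10.7, adjusted p = 7.66e-07). The cause of this gap was not tested. The largest falls were those of Rps29 and Rpl21 (log2 fold changes of -0.67 and -0.59, limma adjusted p of 0.0204 and 0.0218). With quantile normalization 8 of the 83 were lower and 3 higher (13.3%, against 14.0476% of all genes). Under TPM scaling 14 were lower and 5 higher (22.9%, against 28.9% of all genes). The share called in either direction was above that of all genes with FPKM as deposited but not with these scalings. Of all 10920 genes, 699 were lower and 835 higher with quantile normalization, and 347 lower and 2813 higher under TPM scaling. The share of ribosomal protein genes called lower was thus above that of all genes under both. With upper-quartile scaling 26 ribosomal protein genes were lower and 2 higher (33.7%, against 19.1% of all genes). The median under TPM scaling was -0.09, against 0.18 for all genes. After the correction for GC content and length 15 were lower and 1 higher (19.3%, against 9.87% of all genes). Ribosomal protein transcripts are short and have many near-identical copies, so single rows of that list are uncertain.

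Outside the 62 factors, of 8 termination and recycling genes Gspt1, which encodes eRF3a, rose (log2 fold change 0.38, limma adjusted p = 0.0220). Of 16 genes of the mTORC1 branch that acts on translation, a list that also holds the factor gene Eif4enif1, Rheb, the GTPase that switches mTORC1 on, rose (log2 fold change 0.39, limma adjusted p = 0.0290). Among 20 cytosolic aminoacyl-tRNA synthetases Dars rose (log2 fold change 0.47, limma adjusted p = 0.0112), and among 9 mitochondrial translation factors Mtif2, the mitochondrial initiation factor gene, rose (log2 fold change 0.30, limma adjusted p = 0.0214). None of these 4 passed after the correction for GC content and length, nor did Dph6, while Impact and Ppp1cc did. Of the 8 fits that left out 1 library, Gspt1 passed in 4, Rheb in 2, Mtif2 in 3, and Dars and Dph6 in 8. These 4 lists had 12.5%, 6.25%, 5% and 11.1% of their tested genes differentially expressed and the diphthamide genes 14.3%, each below the 18.4% of all genes. With TPM scaling, where 28.9% of all genes were differentially expressed, the counts were 4 higher of the termination and recycling genes (50%), 6 of the mTORC1 branch (37.5%), 6 of the synthetases (30%), 2 of the mitochondrial factors (22.2%) and 2 of the diphthamide genes (28.6%), with none lower. With quantile normalization neither Mtif2 nor any other of the 9 mitochondrial factors passed (0%, against 14.0476% of all genes). After the correction for GC content and length, Mcts1 of the termination and recycling genes was lower (log2 fold change -0.28, limma adjusted p = 0.0314). This was 12.5% of that list, against 9.87% of all genes. None of 7 tested proliferation markers passed with FPKM as deposited, where 5 had a log2 fold change below 0 and 2 above (median -0.20). With quantile normalization 1 was lower (14.3%, against 14.0476% of all genes). The 7 summed to 119 to 156 FPKM in LysM and 121 to 164 FPKM in the libraries labelled K2KO, with Pcna the most abundant.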

How the data were processed

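The authors aligned RNA-sequencing reads (stranded total RNA libraries, single table of 8 columns) to mm10 and deposited FPKM from Cufflinks. The paper's methods name TopHat2 as the aligner and an RNeasy kit, and the submitters' processing notes and labels name STAR, Cuffdiff and a HighPure kit. No pooling of replicates was seen, versions are not given in the sources used here, and FPKM carry no counts, so no counting interval could be given. FPKM differences between libraries can follow composition, and the scalings show how far the results depend on the scale chosen. TPM scaling divides by each library's summed FPKM, to which abundant transcripts add most, so it is not a correction for composition. It moved the median log2 fold change of all genes from 0.01 to 0.18.

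Genes with a mean of at least 1 FPKM were tested on log2(FPKM + 0.1), which understates changes of low genes, with limma 3.58.1 (lmFit, eBayes with trend) in R 4.3.3, no covariate and Benjamini-Hochberg adjustment over 10920 genes. The adjusted p limit of 0.05 and the log2 limit of 0.26 are those of the paper. The study gives 4 biological replicates per genotype. Names, positions, median transcript length and GC content came from GENCODE M21 on GRCm38, matched for 23645 of 23761 genes. Copies were found by aligning each factor's longest coding transcript to all transcripts.

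Named genes were the differentially expressed factors (up to 16 by absolute log2 fold change), 17 factors chosen for their roles, the factors of highest and lowest level, Klf2, Actb, Gapdh, Atf4, up to 3 differentially expressed genes of each other list, and cell type markers; copies and other factors were named after their values were seen. The factors and lists were chosen with earlier results of these data known. Alternatives were other pseudocounts, filters, scalings, models and limits, a local regression on GC content and length (span 0.3), a replicate block, and each library left out in turn.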

Additional observations from a re-analysis of the deposited data

Results flagged for a closer look

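In 3 of the 62 groups of 4 libraries tested (31 named factors, each genotype apart) 1 library stood far from the others relative to the range of its group, and chance gives about 1 in 20, or 3.1. Eif4ebp3 was at 37.6 FPKM in K2KO3, above the other libraries labelled K2KO. Eef1akmt1 was at 22.3 FPKM in LysM3, above the other LysM libraries. Eef2 was at 542 FPKM in K2KO1, above the other libraries labelled K2KO.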

How the results depend on the processing

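The counts of differentially expressed factors and the named factors were recomputed under 22 alternatives, 14 with all libraries and 8 leaving out 1 library, and the median under those that do not change only the limit on the fold change. The other lists were recomputed under 3 scalings and the correction for GC content and length, and the counts without overlap, correlations, motif counts and sums under none. Some named genes of those lists were also followed with 1 library left out. Factors higher in the libraries labelled K2KO, 8 as deposited, numbered 1 with no filter on low values, 19 with TPM scaling, 2 with the correction for GC content and length, 4 with ordinary least squares, 0 at an absolute log2 fold change over 1 and 0 with the replicate block and the correction together. Those lower, 7 as deposited, numbered 4 with the filter at a mean of 0.1 FPKM, 2 with no filter, 3 with quantile normalization, 2 with TPM scaling, 4 with the correction, 4 without an intensity trend, 2 with ordinary least squares, 0 at an absolute log2 fold change over 1 and 3 with the replicate block and the correction together. Of all genes 18.4% were differentially expressed as deposited, against 2.03% with no filter, 12.7% with the lower one, 14.0476% with quantile normalization, 28.9% with TPM scaling, 9.87% with the correction, 16.9% without an intensity trend, 6.83% with ordinary least squares, 1.01% over 1 and 9.23% with the block and the correction. Leaving out 1 library gave 1 to 11 higher and 2 to 10 lower. By construction the adjustment covered more genes with no filter or a lower one, and each fit without a library had fewer samples. Without K2KO3 and without LysM0, however, the share of all genes rose, to 26.0% and 21.4%. The cause of these rises and of the changes under the other settings was not tested. The median log2 fold change of the factors was 0.054 with upper-quartile scaling and 0.18 with TPM scaling, where that of all genes was 0.055 and 0.18, and of all differentially expressed genes 64.1% and 89.0% were higher, against 53.3% as deposited.

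None of the 15 differentially expressed factors changed sign. Out of 22 alternatives Eif4ebp3 and Eif2b4 passed in 21, Eif1a in 20, Eif4e in 17, and Eif3a, Eef1e1 and Eif5 in 15, while Eef1d, Eif4e3 and Eif3i passed in 6. Signs turned only among named factors that did not pass: Eif2b5 (-0.013 without LysM0 and -5.6e-05 without K2KO3, in a range of -0.013 to 0.037 when 1 library was left out), Eif3e (-0.15 with the correction, alone or with the block), Eif4a1 (0.091 with quantile normalization, 0.00028 with upper-quartile and 0.12 with TPM scaling), Eif4ebp1 (0.063 with TPM scaling), Eif5a (0.0035 with quantile normalization), Eef2k (0.11 with TPM scaling, 0.054 with the correction, alone or with the block) and Eif5a2 (-0.029 with the correction, alone or with the block). Whether the column numbers pair the libraries is not known. Same-numbered libraries correlated at -0.07, 0.02, 0.07 and -0.06 in their deviations from the group means, and other pairs at -0.14 to 0.18. Deviations of only 4 libraries from their own mean cannot show whether libraries were prepared in pairs. The replicate block gave 8 higher and 9 lower, with 14 of the 15 retained, where 18.8% of all genes were differentially expressed (1032 higher and 1025 lower). Eif3j2 lost its call (limma adjusted p = 0.0544), and Eif4ebp2 (higher, 0.0357), Eif3g (lower, 0.0456) and Eif6 (lower, 0.0469) gained one. With FPKM the reads behind each value are unknown, and the number of libraries limits precision.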
